A study of Mus musculus with 16 samples.

Results

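The assembled sequence of every mouse autosome begins at about 3 Mb, next to the centromere, and the accessible regions that lie in the first stretch of it are described here. They were chosen by position: every listed region on autosomes 1 to 19 whose end lay below 6000000 in mm10. The rule found 2673 of 127646 regions, and the other 121771 autosomal regions served for comparison. No measured value entered the choice.

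Open chromatin had been profiled by ATAC-seq, an assay whose transposase cuts accessible DNA and tags it for sequencing, in mouse embryonic stem cells of the genotype FOXD3-iKO kept in L2i medium. In the tested arm FOXD3, a forkhead protein at work in the pluripotent state, was depleted by tamoxifen (4HT), and the control arm is labelled EtOH, with 24 h of treatment given for both. Cells of each arm were stained with DAPI and sorted by DNA content into the fractions G1, ES, LS and G2, named as the labels name them. All 8 groups (each fraction with 4HT and with EtOH) share the genotype and the medium, and nothing in the sources used here says how many clones stand behind the line or which promoter drives the recombinase. Every group held 2 libraries, but the deposited table has 1 column for each group, so all values below are pooled values and replicates of a group cannot be compared.

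Mouse chromosomes are acrocentric: the centromere sits near one end, and arrays of minor and major satellite DNA surround it. The satellite arrays are packed into constitutive heterochromatin that carries H3K9 methylation and DNA methylation and clusters in the nucleus as chromocentres. They are mostly missing from the assembly, so that its first bases are the unique or segmentally duplicated DNA beside the arrays, and genes appear there at a density that differs from one chromosome to the next.

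The unit has to be known to read the values. Each value is a coverage signal scaled to library size and averaged over the bases of a region that hold a read. A region without a read has no value, and the smallest value of a column is what 1 read is worth. A multiple below is the signal divided by that 1-read value, and the level of a region is its mean multiple over the 8 columns, with 0 for a column without a read. A multiple grows with the depth of its column, so the 2 treatments are compared on the signal itself. The 1-read values give the 4HT columns a depth (in M reads) of 6.78 for G1, 9.75 for ES, 11.1 for LS and 8.87 for G2. The EtOH columns had 9.96 for G1, 8.38 for ES, 8.17 for LS and 11.2 for G2. Lists of 4 values below keep this order of fractions.

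The label of the cells was checked at the deposited windows, each 5000 bp long, at transcription start sites (TSSs). The 10 ES cell markers had a median level of 1.87, from 1.25 to 2.73, and 9 of them stood above the median of 1.37 over windows of protein-coding genes. Markers of fibroblasts had a median of 1.16 (1 of 7 above that median, range 1.11 to 1.65), neural markers 1.36 (2 of 4) and endoderm markers 1.22 (1 of 3).

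Promoter sequence is shown first for the genes at the 3 most accessible promoters of the stretch, because the results return to them, and for 2 genes of the imprinted cluster on chromosome 6 whose windows were among its lowest. Each line holds 250 bases before and 50 bases after the annotated start, from RefSeq on GRCm38.p6, read 5′ to 3′ on the gene's strand, and capitals mark CG dinucleotides. Evi5l lies at chr8:4166317-4166616 on the plus strand, Cnot3 at chr7:3645019-3645318 on the plus strand, Mtrf1l at chr10:5823894-5824193 on the minus strand, Calcr at chr6:3763574-3763873 on the minus strand and Asb4 at chr6:5383136-5383435 on the plus strand.
Evi5l: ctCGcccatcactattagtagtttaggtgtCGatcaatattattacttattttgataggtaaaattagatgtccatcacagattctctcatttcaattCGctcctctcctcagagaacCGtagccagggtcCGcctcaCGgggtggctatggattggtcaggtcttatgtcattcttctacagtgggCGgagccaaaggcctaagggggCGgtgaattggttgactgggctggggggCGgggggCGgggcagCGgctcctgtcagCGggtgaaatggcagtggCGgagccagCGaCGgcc
Cnot3: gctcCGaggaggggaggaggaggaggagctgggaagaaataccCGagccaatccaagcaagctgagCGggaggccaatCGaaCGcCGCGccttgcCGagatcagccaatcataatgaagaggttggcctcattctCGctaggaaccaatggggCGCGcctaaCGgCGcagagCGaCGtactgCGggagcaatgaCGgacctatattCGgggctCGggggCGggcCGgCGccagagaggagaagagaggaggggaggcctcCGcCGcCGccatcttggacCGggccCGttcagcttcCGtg
Mtrf1l: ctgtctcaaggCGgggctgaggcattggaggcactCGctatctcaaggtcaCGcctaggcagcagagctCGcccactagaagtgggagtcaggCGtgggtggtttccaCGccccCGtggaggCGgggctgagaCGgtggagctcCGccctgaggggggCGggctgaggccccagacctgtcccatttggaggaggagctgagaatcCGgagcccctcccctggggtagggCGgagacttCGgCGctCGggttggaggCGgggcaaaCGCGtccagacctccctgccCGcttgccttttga
Calcr: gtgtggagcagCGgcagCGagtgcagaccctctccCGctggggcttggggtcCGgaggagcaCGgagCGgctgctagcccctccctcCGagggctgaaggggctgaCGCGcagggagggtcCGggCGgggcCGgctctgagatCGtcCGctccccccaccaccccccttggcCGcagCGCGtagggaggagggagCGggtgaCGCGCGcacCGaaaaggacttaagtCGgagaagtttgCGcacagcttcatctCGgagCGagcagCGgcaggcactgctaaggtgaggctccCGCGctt
Asb4: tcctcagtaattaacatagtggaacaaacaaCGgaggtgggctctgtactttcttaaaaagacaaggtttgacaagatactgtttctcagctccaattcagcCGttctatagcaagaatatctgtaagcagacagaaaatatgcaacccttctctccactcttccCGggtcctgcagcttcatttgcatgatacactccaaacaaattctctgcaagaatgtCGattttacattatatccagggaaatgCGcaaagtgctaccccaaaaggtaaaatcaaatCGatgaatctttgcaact
The promoters of Evi5l, Cnot3 and Mtrf1l hold 15, 28 and 20 CG dinucleotides. That of Calcr, the calcitonin receptor, holds 29 and that of Asb4, a substrate adaptor of a ubiquitin ligase, holds 6. Of the 5, Calcr is the richest in CG and yet its window stood at a level of 1.17, while the window of Asb4 stood at 1.12.

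Among promoters in the stretch, 38.4% of 873 carried CCAAT and 39.3% carried GGGCGG on either strand, against 37.4% and 35.7% of all 32851 promoters in the table, where windows of alternative starts overlap. Of the other motifs searched on both strands, CCGGAAG was in 10.8% against 8.86%, and the palindrome bound by NRF1 was in 0.229% against 0.971%. The share of 0.229% rests on very few of the 873 promoters. CCAAT and GGGCGG are both in the Evi5l, Cnot3 and Mtrf1l promoters, Calcr has GGGCGG alone and Asb4 has CCAAT alone. A letter match marks no bound site. Across regions next to centromeres that lay within 1000 bp of a TSS, called proximal below, the level went with CG content up to a point. The median level was 1.03 for 43 regions at promoters with 0 to 4 CGs, 1.59 for 117 regions with 5 to 14, 2.07 for 141 regions with 15 to 24, and 1.73 for 157 regions with 25 or more. The most CG-rich class thus had a lower median than the class before it, with overlapping quartiles (1.29 to 2.45 against 1.40 to 2.97). Together the classes hold fewer regions than the 581 proximal ones, and the remaining proximal regions are not covered.

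Regions next to centromeres lay at gene starts somewhat more often than the rest of the list. Of the 2673, 581 (21.7%) were proximal, against 17.4% of the other autosomal regions, a gap of 4.37 points that was 1.90 points without chromosome 19, and 64.2% against 62.8% overlapped a gene. Their width was alike, with a median of 248 bp against 252 bp. The median level was 1.12, against 1.01 elsewhere and 1.04 in the 2274 regions that end between 6 and 9 Mb. In proximal regions it was 1.64 against 1.45, and in the rest, called distal, it was 1.02 against 0.941. A read was present in all 8 columns for 1000 regions (37.4%, against 30.5% elsewhere), and 20 regions (0.748%, against 0.419%) had no read in any column.

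The share of regions with at least 1 read was higher next to centromeres in each of the 8 columns. In 4HT it was 70.9% in G1, 78.2% in ES, 82.9% in LS and 76.0% in G2, against 67.5%, 76.2%, 80.2% and 74.0% for the other autosomal regions. EtOH columns gave 83.1% in G1, 76.2% in ES, 77.3% in LS and 82.3% in G2 next to centromeres, against 77.7%, 72.7%, 72.9% and 79.8% elsewhere. The mean was 78.4% ± 4.23 against 75.1% ± 4.27 (SD over 8 columns), a difference of 3.23 points (range 2.004 to 5.32, higher in 8 of 8, exact two-sided sign-flip permutation p 0.00781, adjusted p 0.0100 over 9 such comparisons). That p is the smallest that 8 columns allow, and since the columns share their regions it covers the spread between columns only. In such bulk signal, fewer cells with an open region and less opening per cell cannot be told apart.

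The shares at 2 or more times the 1-read value gave the same order. They averaged 18.6% ± 4.37 next to centromeres and 12.9% ± 3.54 elsewhere (SD, 8 columns), higher in 8 of 8 columns with the same exact permutation p and adjusted p, and in proximal regions 36.9% ± 6.68 against 28.8% ± 6.37. The median multiple of a column differed in only 4 of 8 columns, because in the other 4 both medians were at 1 read (difference 0.07, exact permutation p 0.125, adjusted p 0.141).

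**Figure D1:**
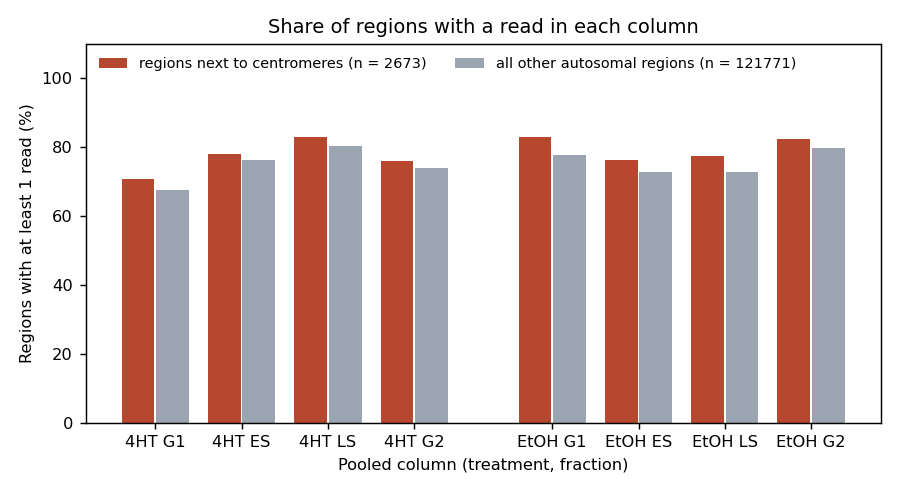
Percentage of regions with at least 1 read (vertical axis) in each pooled column (horizontal axis), for the 2673 regions next to centromeres and for the other 121771 autosomal regions. The left bar of each pair is the taller one in all 8 columns, by 2.004 to 5.32 points.

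The pooled difference came from some chromosomes. Each of the 18 autosomes with at least 20 such regions was compared with the rest of the same chromosome, a comparison added after the pooled values had been seen. The share with a read was higher next to the centromere on 6 chromosomes, lower on 2 and not called on 10 (exact sign-flip permutation over 8 columns, adjusted over 18 chromosomes). All of these calls stood at the smallest p that 8 columns allow. Here too the columns share their regions, so the p-values cover the spread between columns only. How often other stretches of 3 Mb would be called in this way was not tested. Chromosome 19 differed by the widest margin, with 92.8% ± 3.23 of 197 regions next to the centromere against 76.2% ± 4.11 on the rest of it (SD, 8 columns, difference 16.6 points, higher in 8 of 8, adjusted p 0.0176). Chromosomes 16 (87.4% against 73.7%), 7 (88.0% against 76.9%), 12 (84.7% against 74.96%), 11 (83.9% against 78.8%) and 2 (79.0% against 74.6%) were higher in 8 of 8 columns with the same adjusted p.

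On chromosome 3 the order was the opposite: 63.8% ± 6.53 of its 56 regions next to the centromere had a read, against 72.2% ± 4.74 on the rest (SD, 8 columns), and the share was lower in 8 of 8 columns. Chromosome 17 followed with 71.1% against 76.4%, also lower in 8 of 8 columns and with the same adjusted p of 0.0176. Without chromosome 19 the pooled difference was 2.11 points (higher in 8 of 8 columns), and without chromosomes 7, 12, 16 and 19 it was -0.11 points (higher in 4 of 8 columns, exact permutation p 0.875). With equal weight for each of the 19 autosomes it was -0.68 points, which rests on the single region of chromosome 14, and with equal weight for the 18 others it was 1.87 points (higher in 8 of 8 columns).

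**Figure D2:**
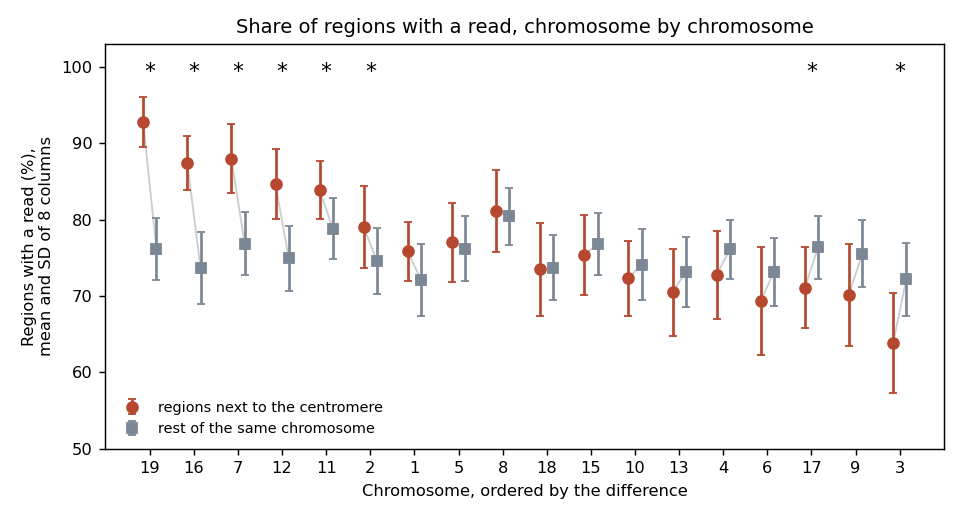
Percentage of regions with a read (vertical axis, which starts at 50) for the regions next to the centromere and for the rest of the same chromosome, as mean and SD of the 8 pooled columns, with chromosomes ordered by the difference. Stars mark the 8 chromosomes past an adjusted p of 0.05 (exact sign-flip permutation, which covers the spread between columns only). On 6 of them the left point lies above the right one, and on chromosomes 17 and 3 it lies below.

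Gene content varied along with accessibility between chromosomes. The first stretch of chromosome 19 held 118 protein-coding genes, and 106 of its 197 regions were proximal. That of chromosome 7 held 90 such genes, with 65 of 210 regions proximal, whereas chromosome 3 held 3 protein-coding genes and 4 proximal regions of 56. Over the 18 chromosomes the mean share with a read went with the proximal share (Pearson r 0.88, Spearman rho 0.85) and with the number of protein-coding genes (r 0.81, rho 0.77). These are descriptions over 18 points that come from the same columns. The difference between regions next to centromeres and the others was also present within distal regions (74.96% against 72.3%, 2.61 points) and within proximal ones (90.6% against 88.4%, 2.25 points), each higher in 8 of 8 columns with an exact permutation p of 0.00781.

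Chromosome 14 stood apart. It had 1 listed region below 6 Mb, chr14:5880488-5880603, between genes, with a read in 2 of 8 columns and a level of 0.342. Yet its stretch carries 119 annotated genes, 46 of them protein-coding and 37 pseudogenes. The windows around TSSs, which were deposited whether or not a region was listed, were low there as well: over 120 windows the median level was 0.349, with reads in all 8 columns at 28 and in none at 37. In the other stretches next to centromeres the median over 923 windows was 1.33, with reads in all 8 columns at 903 and in none at 3. Over the remaining 34000 autosomal windows the median was 1.26. Windows and regions rest on the same reads, so they are not independent readouts. How reads with several matches were treated is not given, and why the values of chromosome 14 are low was not tested.

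Distance from the start of sequence made little difference beyond the first 100 kb. Distance was counted from coordinate 3 Mb on all 19 autosomes, not from the first assembled base of each. That first 100 kb held 19 listed regions on 6 chromosomes, or 10 regions per Mb and chromosome, against 39.2 to 53.6 in the bins from there to 3 Mb. Bases without assembled sequence were not taken out, so the 10 cannot be read as a sparse edge. The share with a read averaged 65.8% ± 7.44 in the first bin and between 75.1% and 79.6% in those later bins (SD, 8 columns). Other measures of these 19 regions went the other way. Their median level was 1.21, against 1.01 to 1.16 in the later bins. A read in all 8 columns was present for 42.1% of them, against 30.6% to 40.9%. The region closest to the start, chr18:2999997-3000265, had a level of 1.33 with a read in 7 columns, and the next ones on chromosomes 17 and 18 had levels between 0 and 1.21. At the other limit, the last 5 regions below 6 Mb had levels of 0.375, 1.16, 0.71, 1.65 and 1.26, and the first 5 above it 1.14, 1.35, 1.47, 1.37 and 1.16.

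**Figure D3:**
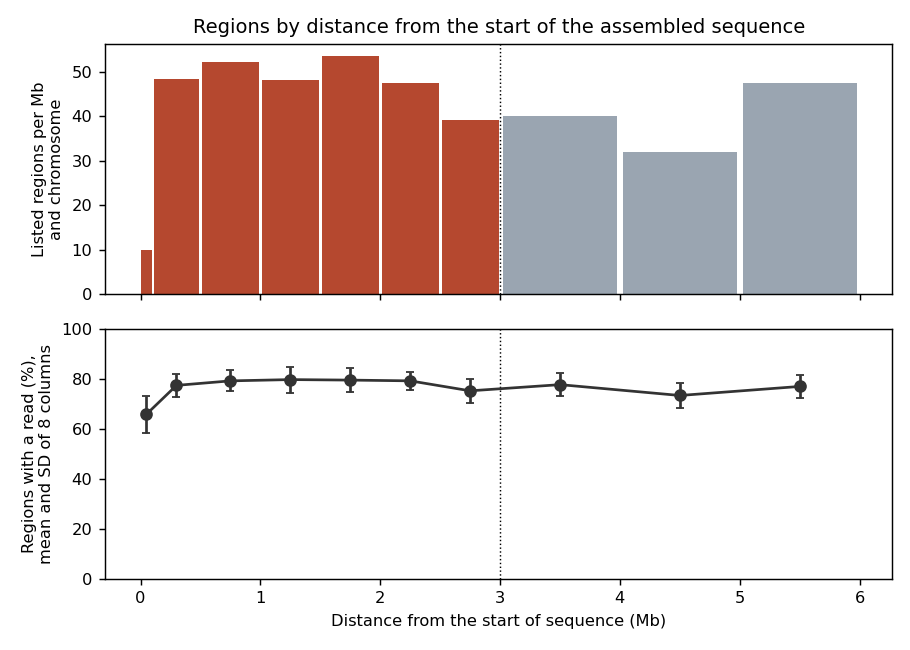
Listed regions per Mb and chromosome (upper panel) and percentage of regions with a read as mean and SD of 8 columns (lower panel), by distance in Mb from coordinate 3 Mb, taken as the start of sequence on all 19 autosomes. Bases without assembled sequence were not taken out of the densities. The dotted line marks the limit of the chosen stretch; the first 100 kb stands lowest in both panels, at 10 regions and 65.8%.

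The highest region lay within 1000 bp of a gene start on most chromosomes. On chromosome 8, chr8:4165721-4166964 covered the start of Evi5l, which encodes a TBC-domain protein of the Rab regulator family, at a level of 13.4. Its multiples were 11.4, 11.4, 17.1 and 13.6 in 4HT and 15.1, 8.63, 13.6 and 16.2 in EtOH. On chromosome 7, chr7:3644532-3645379 covered the start of Cnot3, a subunit of the CCR4-NOT deadenylase complex, with multiples of 9.81, 10.8, 16.5 and 10.3 in 4HT and 11.7, 12.2, 13.5 and 19.5 in EtOH. For neither did the 2 treatments separate, and the deeper columns, 4HT LS and EtOH G2, were the highest.

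Next among promoters was chr10:5823423-5824709 at Mtrf1l, a release factor of mitochondrial translation, with multiples of 9.31, 6.62, 11.8 and 11.02 in 4HT and 9.75, 6.57, 9.01 and 10.6 in EtOH. Then came chr9:4309080-4310333 (8.77), the shared promoter of Aasdhppt, a phosphopantetheinyl transferase, and Kbtbd3, and chr16:5255763-5256465 (8.62) at Eef2kmt, which methylates elongation factor 2. At chr2:3332770-3332989 (8.33), 142 bp from the start of Rpp38, a protein subunit of RNase P, and at chr19:3575626-3576339 (7.07) over the start of Ppp6r3, a regulatory subunit of protein phosphatase 6, the top regions were again promoter regions.

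The start of Plag1, a zinc finger transcription factor, and Chchd7 on chromosome 4 (6.44), that of Rpl37, a ribosomal protein, and Card6 on chromosome 15 (5.34), and that of Klf6, a zinc finger transcription factor, on chromosome 13 (3.94) led their chromosomes. On 8 chromosomes the top region lay farther than 1000 bp from any annotated start. It lay 1687 bp from Tcea1 on chromosome 1 (6.45), inside Ncoa1 on chromosome 12 (5.56), 17293 bp from Dync1i1 on chromosome 6 (3.64), 28306 bp from Mtpap on chromosome 18 (3.55), and 4159 bp from Steap2 on chromosome 5 (2.91). The others of these were the single region of chromosome 14, a region inside Sfi1 on chromosome 11, and a region of chromosome 3 at 23.7, the highest of all. Chromosome 17 was led by a region at the pseudogene Pisd-ps2 (6.52).

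Read by gene group, windows of genes in these stretches were slightly above other protein-coding windows, with a median level of 1.44 (568 windows) against 1.36 (18493 windows). Genes of RNA metabolism and ribosomes had the highest median of the 7 lists at 1.80, and 11 of 12 stood above the median of all protein-coding windows. Cnot3 (4.84), Rpp38 (3.08), the nonsense-mediated decay factor Upf2 (2.15) and the ribosomal protein gene Rps9 (1.85) led that list. The list of chromatin and DNA methylation genes had a median of 1.78 (9 of 11 above), led by Cdk2ap2 (2.70), Asxl2, a Polycomb-related protein (2.29), and Rbm14, a paraspeckle protein (2.28). Dnmt3a, the DNA methyltransferase of this list, and Arid1b lie in the stretches but had no window assigned, so neither has a value. The same holds for Slx4 and Hmox2 of the lists below. Suv39h2, which methylates H3K9 in the very heterochromatin beside these stretches, stood at 1.73.

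Mitochondrial and metabolic genes had a median of 1.77 (8 of 10 above), with Ndufs8, a subunit of complex I, and Tfb1m, which methylates mitochondrial ribosomal RNA, at 2.25 each. Replication and repair genes had a median of 1.58 (7 of 9 above), led by Aasdhppt (4.94), which is not itself a replication factor, and Mus81 (2.82), the catalytic part of a structure-specific endonuclease. Transcription factors stood at 1.48 (6 of 10 above), with Plag1 at 3.51 and Klf6 at 2.197. Cytokine and signalling genes were lower at 1.2997 (5 of 11 above), and Lif, the cytokine that keeps mouse ES cells undifferentiated, had a level of 1.23.

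The imprinted cluster on chromosome 6, where Peg10 and Sgce are expressed from the paternal allele, had the lowest median of the 7 lists at 1.21. Peg10 (1.86) and Sgce (1.84), which share a promoter, were the 2 of 10 genes above the median of all protein-coding windows. The other 8, Casd1, Pon2, Ppp1r9a, Tfpi2, Pon1, Pon3, Calcr and Asb4, lay between 1.12 and 1.295. Of these genes, those with low windows were not tested: 2 of 10 could be tested in the imprinted cluster and 5 of 11 among cytokine and signalling genes, against 8 to 11 in each of the other lists. None of the tested genes was called for treatment (background over all windows 0.00653% in each direction) or fraction (background at most 0.0522%), and the smallest adjusted p for treatment (limma, Benjamini-Hochberg) was 0.871.

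A few loci next to centromeres belong to sequence that is repeated in the genome, and their values have to be read with that in mind, since the sources used here do not give the aligner or how reads with several matches were treated. On chromosome 11 the gene of Sfi1, a centrin-binding protein of the centrosome, spans 3131850 to 3203347. Inside it chr11:3145453-3145653 had multiples of 5.29, 6.31, 12.01 and 9.09 in 4HT and 4.34, 3.53, 6.62 and 10.9 in EtOH, and chr11:3157763-3157981 stood at a level of 5.87. At the neighbouring pseudogene Pisd-ps1, chr11:3123675-3124206 stood at 4.625. Farther along the same gene, 9 regions in a row between 3184644 and 3199891, 2 of them over 1000 bp wide, had no read in any of the 8 columns.

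These were 9 of the 20 regions next to centromeres that had no read anywhere. Of 4974 regions at least 1000 bp wide elsewhere on the autosomes, 1 had no read in any column, against 2 of 115 next to centromeres, both in Sfi1. Among windows, the one over Pisd-ps1 had a level of 5.59, and those at 3139399 to 3144398 and 3148606 to 3153605 inside Sfi1 had 8.35 and 4.835. In the stretch without reads, the windows 3191114 to 3196113 and 3191914 to 3196913 had none, while the window at Fau-ps2, 3194475 to 3199474, had reads in 3 columns (level 0.56). The window at the start of Eif4enif1 stood at 1.70. On chromosome 17, the related pseudogene Pisd-ps2 and its flank held 7 listed regions, of which 3 had levels of 4.79, 6.52 and 5.398 and the other 4 stood between 0.957 and 2.25. What separates the stretch of Sfi1 without reads from the stretch with high values was not tested.

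The first 40 kb of chromosome 9 gave the highest windows of all stretches next to centromeres. Windows at 3020898 to 3025897 and at 3022768 to 3027767 had levels of 31.8 and 29.9, and those at 2998273 to 3003272 and 3000697 to 3005696 had 17.5 and 11.1. In the first of these the multiples were 25.7, 28.9, 34.6 and 32.4 in 4HT and 38.7, 21.1, 24.2 and 48.4 in EtOH. The 1 listed region there, chr9:3025511-3025625, lies inside both of the highest windows and had no read in any column. Signal over the windows was therefore not on a listed region, and the overlapping windows are not independent of each other. Here too it is not known how reads with several matches were treated, and whether this sequence is repeated elsewhere was not tested. These values cannot be read as accessibility of unique sequence.

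No region next to centromeres was called for the treatment. A linear model (limma on log2 of signal + 0.1, with terms for treatment and fraction over the 8 pooled columns) was fitted to 11010 regions that held reads in all columns and whose mean multiple reached 2. Of these, 403 (15.1% of the 2673) lay next to centromeres. The others could not be tested, and a region that lost its reads in any column is among them. Neither direction had a call among the 403 (0% of all regions tested), and the smallest adjusted p was 0.887. At an unadjusted p under 0.05 there were 5 higher (background 3% of all regions) and 12 lower (2.43%). The median difference was -0.02 against 0.00 for all regions, and the standard errors had a median of 0.22.

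The 4HT and EtOH columns did not overlap for 2 regions with 4HT higher (0.496% of the 403, background 1.36%) and for 6 with 4HT lower (1.49%, background 1.44%). Among regions with 1 sign in all 4 fractions, the largest positive difference was at Rpp38, with a signal of 1.005, 0.935, 1.24 and 0.952 in 4HT and 0.746, 0.496, 0.777 and 0.951 in EtOH (log2 0.50, SE 0.16, limma adjusted p 0.887). In G2 the signals were almost equal (0.09 on the centred log2 scale), and the separation of the columns holds for the centred values only. It was followed by the chromosome 3 region described with the fractions (0.48, SE 0.14), the Sfi1 region (0.47, SE 0.16), Znrf3 (0.40, SE 0.16), whose product removes Wnt receptors from the membrane, and Camsap3 (0.36, SE 0.19), which binds microtubule minus ends. The sign in all fractions is part of the rule that picked them, and none passed the adjusted threshold.

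Of the 403, 23 were higher in 4HT in all 4 fractions (background 6.69%) and 28 were lower (6.66%). Within single fractions, which have 1 column per treatment and so no test, the counts past 2-fold were 10 higher (2.36%) and 8 lower (1.59%) in G1, 5 higher (1.58%) and 7 lower (1.59%) in ES, 8 higher (1.79%) and 8 lower (2.19%) in LS, and 7 higher (1.73%) and 8 lower (1.54%) in G2.

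On the lower side, chr12:4843175-4843571, 824 bp from the start of Wdcp, had a signal of 0.165, 0.119, 0.334 and 0.301 in 4HT and 0.288, 0.279, 0.645 and 0.478 in EtOH (log2 -0.64, SE 0.19, limma adjusted p 0.887). At the start of Rbm14, chr19:4811502-4811997 had a signal of 0.396, 0.435, 0.406 and 0.265 in 4HT and 0.537, 0.713, 0.623 and 0.722 in EtOH (-0.63, SE 0.19). Here every 4HT column lay below every EtOH column. Near Mus81, chr19:5488911-5489438 had 0.404, 0.502, 0.491 and 0.674 in 4HT and 0.732, 0.82, 1.14 and 0.709 in EtOH (-0.58, SE 0.18), again without overlap but with almost equal values in G2. Regions at Myadm (-0.58, SE 0.20) and Gm11962 (-0.56, SE 0.22) complete the 5. At their TSS windows, which hold 5000 bp, Rbm14 differed by -0.30 and Mus81 by -0.20, with limma adjusted p-values no lower than 0.871.

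**Figure D4:**
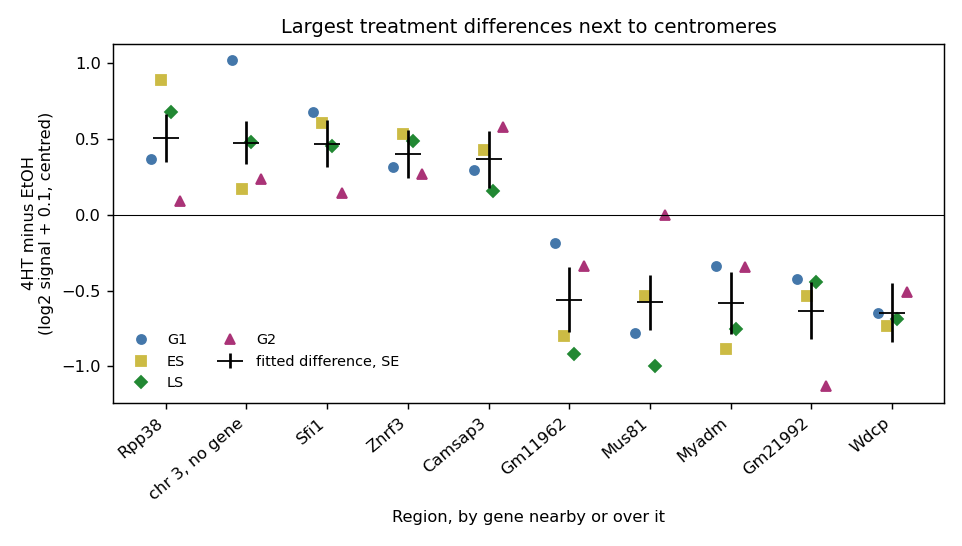
4HT minus EtOH difference on the centred log2(signal + 0.1) scale (vertical axis) for the 5 regions with the largest positive and the 5 with the largest negative difference among those with 1 sign in all 4 fractions, labelled by a gene at or over the region. Coloured points are the 4 fractions and the black bar is the fitted difference with its SE; none of the 10 passed an adjusted p of 0.05, and the Mus81 region in G2 lies at 0.00.

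Among windows, 520 of 15323 tested lay in the stretches, and 1 was higher in 4HT (background 0.00653% of all windows) while none was lower (0.00653%). It lies on chromosome 9 at 3013005 to 3018004, between the very high windows, and is subject to the same limit on reads with several matches. Its signal was 0.512, 0.449, 0.562 and 0.728 in 4HT and 0.284, 0.278, 0.439 and 0.246 in EtOH (log2 0.71, SE 0.12, limma adjusted p 0.00875), without overlap, and the widest gap was in G2. The call was lost without G2 (log2 0.55, adjusted p 0.886), with no filter on the level (adjusted p 0.0915) and without centring (adjusted p 0.0554). The overlapping window at 3014759 to 3019758 had a difference of 0.45 and an adjusted p of 0.438, and the other tested windows of this start had differences between -0.10 and 0.28. At an unadjusted p under 0.05 there were 17 higher (2.67%) and 22 lower (2.61%) windows in the stretches. The columns did not overlap for 8 higher (1.29%) and 12 lower (1.25%), and all 4 fractions had 1 sign for 36 higher (6.58%) and 39 lower (6.32%).

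Counted over all 2673 regions, the share with a read averaged 77.0% ± 4.98 in 4HT and 79.7% ± 3.45 in EtOH (SD, 4 fractions), a difference of -2.76 points that was negative in G1 and G2 and positive in ES and LS (exact permutation p 0.625, with 0.125 the smallest that 4 pairs allow). Set against the other autosomal regions of the same column, the excess of regions next to centromeres was smaller in 4HT in all 4 fractions. Its values were 3.40, 2.02, 2.62 and 2.004 points in 4HT and 5.32, 3.54, 4.47 and 2.50 points in EtOH (difference -1.45 ± 0.658, exact permutation p 0.125, adjusted p 0.312 over 5 comparisons). The 4HT column was the deeper one in ES and LS and the shallower one in G1 and G2.

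In distal regions the excess was also smaller in 4HT in all 4 fractions, at 2.59, 0.868, 1.69 and 1.5 points in 4HT and 5.13, 2.54, 4.22 and 2.39 points in EtOH. In proximal regions the sign was mixed, with 2 of 4 fractions higher in 4HT. By chromosome, 13 of 18 had a smaller difference from their own rest in 4HT than in EtOH. The chromosomes share the same pooled columns, so they are not repeats of the treatment. With 4 pooled pairs the test cannot pass 0.05, so the pattern is given as values.

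One region next to a centromere was called between fractions, and it stood far above its surroundings. At chr3:5860576-5860834, with no annotated start within 246183 bp and 281980 bp beyond the end of Pex2, the multiples were 9.54, 7.14, 9.49 and 66.3 in 4HT and 6.69, 5.78, 5 and 79.4 in EtOH. The G2 column was the highest in both treatments, and G1, ES and LS overlapped. The difference of G2 from G1 was log2 2.67 (SE 0.20, limma adjusted p 3.7e-06), higher in 2 of 2 treatments, and it was the 1 region next to centromeres of 403 called higher in G2, against 0.0182% of all regions. The call held under all 8 alternative settings, with log2 values from 2.29 to 2.78.

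The nearest neighbours did not share this. The region before it, 5687510 to 5687647, had a level of 0.685 and no read in 3 of 8 columns. The one after it, 5988813 to 5989431, had multiples of 3.27, 3.45, 3.72 and 2.52 in 4HT and 2.72, 1.53, 3.99 and 2.68 in EtOH, with both G2 columns inside the range of the other columns. The other 11 regions plotted reach to 6174478, past the 6 Mb limit, and no multiple in them exceeded 6.504. In 1 of these, 6094506 to 6094741, G2 was also the highest fraction in both treatments, with a signal of 0.521, 0.376, 0.49 and 0.717 in 4HT and 0.303, 0.385, 0.542 and 0.582 in EtOH. Among regions with 1 sign in all 4 fractions, the called region also had the second largest positive 4HT minus EtOH difference (log2 0.48, SE 0.14, limma adjusted p 0.887), which was not called.

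**Figure D5:**
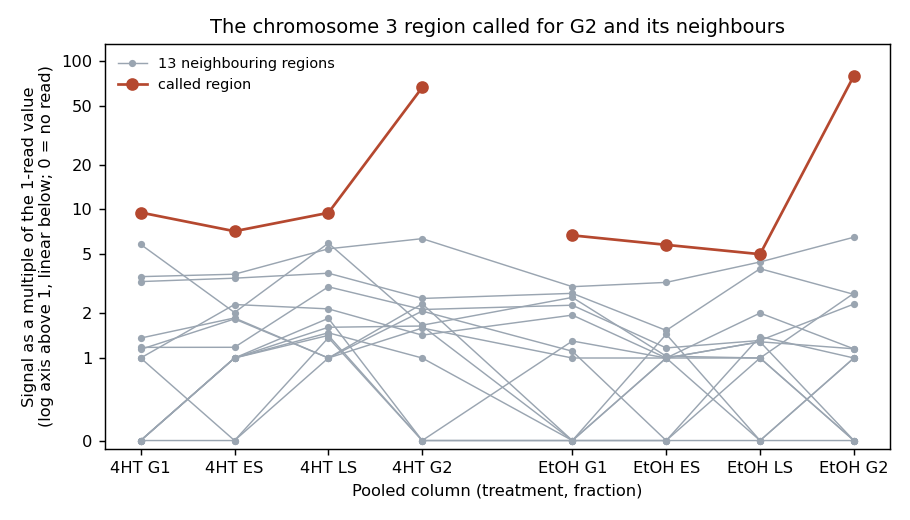
Signal as a multiple of the 1-read value (vertical axis, log above 1 and linear below, 0 for no read) in the 8 pooled columns for the chromosome 3 region called for G2 and for 13 regions around it. The called region stands at 66.3 in 4HT G2 and 79.4 in EtOH G2 and between 5 and 9.54 elsewhere, and no neighbour passes 6.504.

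No other region next to centromeres was called between fractions. In ES against G1 none of 403 was called in either direction (0% of all regions), with 4 higher (background 3.69%) and 23 lower (3.44%) at an unadjusted p under 0.05. LS against G1 gave none (0%), with 10 higher (3.61%) and 20 lower (3.67%), and G2 against G1 gave none lower (0%), with 11 higher (2.83%) and 20 lower (3.07%). Medians of the 403 were -0.05 for ES, -0.05 for LS and -0.07 for G2, against 0.00 for all regions in each. These contrasts subtract the same G1 columns, so their shared sign is not repeated evidence. Above 0 were 180 of 403 in ES, 184 in LS and 175 in G2. Both treatments gave the same sign for 88 higher (background 26.2%) and 120 lower (26.5%) regions in ES, for 106 higher (26.3%) and 131 lower (26.7%) in LS, and for 78 higher (24.7%) and 134 lower (25.9%) in G2.

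The largest fraction differences that were not called involved genes of several kinds. In ES, the regions at Vasn, a TGF-beta-binding membrane protein (log2 0.73, SE 0.34), and 8752 bp from Chka, choline kinase (0.68, SE 0.26), were on the positive side against G1, and the second region at Rbm14 was on the negative side (-0.91, SE 0.27, adjusted p 0.511). In LS, Smtn, an actin-binding protein (0.88, SE 0.29), and a region in Gucy1a2, a guanylate cyclase subunit (0.81, SE 0.33), were on the positive side. Lrfn4 (-0.86, SE 0.30), Zdhhc24 with Actn3 (-0.85, SE 0.26) and Pam16 with Glis2 (-0.84, SE 0.34) were on the negative side. In G2, Smtn again had 0.88 (SE 0.29), while Atad2b, a bromodomain ATPase (-1.17, SE 0.31), Cpt1a, the carnitine palmitoyltransferase of fatty acid oxidation (-1.13, SE 0.31), and chr18:4403895-4404575 (-1.05, SE 0.31) were on the negative side. All of these had limma adjusted p-values between 0.491 and 0.687.

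Of the 520 windows in the stretches none was called between fractions. The backgrounds were 0% higher and 0.0196% lower for ES, 0.0196% higher and 0.0522% lower for LS, and 0.0261% higher and 0.0196% lower for G2. At an unadjusted p under 0.05 there were 9 higher (2.92%) and 17 lower (3.86%) in ES, 8 higher (3.35%) and 22 lower (3.55%) in LS, and 15 higher (2.57%) and 15 lower (3.07%) in G2.

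At Atad2b the multiples were 4.43, 2.80, 3.79 and 1.38 in 4HT and 4.58, 2.10, 5.49 and 2.89 in EtOH. G2 was the lowest fraction in 4HT, and ES was the lowest in EtOH. At Smtn the multiples were 1.37, 2.90, 6.56 and 3.68 in 4HT and 1.57, 2.05, 2.86 and 5.02 in EtOH, with G1 the lowest in both treatments.

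Whole stretches were then compared as units, each against all segments of 3 Mb on the autosomes. By mean signal of the tested regions, none of 17 stretches next to centromeres was called for treatment, ES, LS or G2, and none of all 606 segments was. The stretches of chromosomes 3 and 14 were left out of this, with 3 and 0 tested regions against a minimum of 5. That of chromosome 3, which holds the region called for G2, was thus not tested by signal. By share of regions with a read, none of 18 was called in any of these contrasts, where all 804 segments gave 3 calls in LS and 0 in the others. The limma adjusted p-values of these stretches were 0.325 or higher throughout. At an unadjusted p under 0.05 there were 0, 2, 2 and 3 of 17 by signal (44, 70, 79 and 48 of 606) and 1, 2, 0 and 3 of 18 by share (38, 83, 106 and 74 of 804), for treatment, ES, LS and G2 in turn.

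By signal, the stretches of chromosomes 15 and 18 had negative differences from G1 in both ES (log2 -0.21, SE 0.08, and -0.24, SE 0.08) and G2 (-0.20, SE 0.08, and -0.23, SE 0.08) at that unadjusted level. By share it was chromosome 13, with -7.50 points in ES (SE 2.73) and -7.01 points in G2 (SE 2.73). Differences in ES and in G2 subtract the same G1 columns, so they are not separate observations. Over all 17, the median by signal was -0.08 in ES (2 of 17 above 0, median of all segments 0.00) and -0.09 in G2 (4 of 17 above 0, median of all segments -0.01). For the treatment the median was -0.03 (4 of 17 above 0), and by share it was -0.54 points (6 of 18 above 0), against 0.37 points for all segments.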

How the data were processed

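ATAC-seq signal came from 16 libraries, 2 per group, which the authors deposited as 1 pooled column per group. The deposited signal is coverage per base scaled to library size, over accessible regions and over windows of 5000 bp at gene starts. The submitters' processing notes name mm10, featureCounts and DESeq2 without saying which step each served, and the aligner is not given in the sources used here. Gene starts and promoters came from RefSeq.

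A linear model with treatment and fraction as terms was fitted in limma 3.58.1 (R 4.3.3) to log2(signal + 0.1), with cyclic loess centring, intensity trend and robust moderation, leaving 3 residual degrees of freedom. Fractions thus serve as repeats of the treatment contrast and treatments as repeats of the fraction contrasts, so p-values measure the spread between pooled columns, not between cultures. P-values were adjusted by Benjamini-Hochberg over all 11010 regions, 15323 windows (read in all columns, mean multiple at least 1.3) or segments tested, with a threshold of 0.05. The fit was tested on simulated data with independent normal noise around the mean of each region, window or segment. Coverage near 1 read need not follow such noise, so that test does not back the lack of calls. Single values were compared by exact sign-flip permutation.

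Regions were named by rule: the highest on each autosome, the 5 largest treatment differences each way with 1 sign in all fractions, and the 3 largest each way for each fraction with 1 sign in both treatments. Regions and gene lists were chosen with earlier results of these data known. Promoters of Calcr and Asb4 were chosen after their values were seen. Alternatives were other pseudocounts, filters, centring, limits and columns left out.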

Additional observations from a re-analysis of the deposited data

Results flagged for a closer look

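Dixon's test was run on 128 sets of 4 columns. Each set was 1 treatment of a named region, of a window, or of a share or mean over the regions next to centromeres. In 7 sets, 1 column was set apart from the other 3 by a gap wider than the test allows. Chance alone would flag about 1 in 20 sets chosen without regard to their values. Many of these regions were named for large differences in the same columns, so that rate does not hold for them. At the chromosome 3 region, chr3:5860576-5860834, the G2 column was the highest in both treatments, at 66.3 in 4HT (next 9.54) and 79.4 in EtOH (next 6.69) times the 1-read value. The Cnot3 region reached 16.5 in 4HT LS, with the next column at 10.8, and the region at Rpl37 and Card6 reached 9.09 in 4HT LS, with the next at 4.9. These LS values come from the deepest 4HT column, and multiples are not scaled for depth. On the signal, 4HT gave 1.45, 1.11, 1.49 and 1.16 at Cnot3, where G1 was close to LS. At Rpl37 and Card6 it gave 0.642, 0.429, 0.820 and 0.553. The Lrfn4 region stood at 2.69 in 4HT G1, with the next column at 1.73. The Cpt1a region was lowest in 4HT G2, where it stood at 1 against 3.13 for the next column. On the signal its 4HT values fell step by step, at 0.520, 0.362, 0.282 and 0.113. The gap before G2 was then close to that between G1 and ES. The 4HT signals of the Lrfn4 region were 0.397, 0.159, 0.152 and 0.195, with G1 still the highest. For regions and windows, Dixon's test was run on multiples only. The chromosome 9 window at 3010491 to 3015490 had 1.58 in 4HT G1 and 1 in the other 4HT fractions.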

How the results depend on the processing

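No paired analysis was possible because the deposited columns are pooled over libraries and carry no replicate numbers, so this holds for pairing by library. Treatments were paired by fraction. No count of regions or segments next to centromeres changed under any alternative run, and each named difference kept its sign. The higher share with a read next to centromeres, 3.23 points, lay between 1.87 and 3.68 points under 7 alternatives. It reversed to -0.68 with equal weight for 19 autosomes (planned, exact permutation p 0.508) and to -0.11 without chromosomes 7, 12, 16 and 19 (chosen after seeing the data, p 0.875). The median multiple passed the threshold with equal weight, at 0.0806 for 19 autosomes and 0.122 for 18. The proximal gap of 4.37 points was 1.79 with a limit of 9 Mb, 1.52 and 2.47 with equal weight for 19 and 18 autosomes, 1.90 without chromosome 19 and 0.112 without the 4 chromosomes. It cannot be computed for distal regions alone. Leaving out 1 fraction at a time, the 4HT minus EtOH share ran between -5.52 and 0.387 points and the mean multiple between -0.205 and 0.0124. Both changed sign without G1, where the 4HT column is the shallowest of all.

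Among all regions, the count for ES was 0, with 2 at a pseudocount of 0.02, 3 at a level minimum of 3, and 1 each with no or median centring. Windows used alternatives added after seeing the data. Their treatment count of 2 was 0 with no filter, 1 at a minimum of 2, 0 with no centring and 0 to 4 with 1 fraction left out. In the stretches the count of 1 was 0 with no filter, 0 with no centring and 0 to 1 with 1 fraction left out. The ES count of 3 was 1, 1 and 0, and the LS count of 11 was 4, 4 and 0 under these (no filter, higher minimum, no centring), with 7 to 8 when 1 fraction was left out. The G2 count of 7 was 4 with no centring. For segments, LS by signal gave 0, and 2 where 40 listed and 10 tested regions were required. LS by share gave 3, with 0 under no centring and 3 to 5 with 1 fraction left out, and G2 by share gave 0, with 1 under no centring. The cause of these moves was not tested. Depth limits the values: 1 read decides presence, and most regions stand near 1 read.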
